A study of Mus musculus with 12 samples.

Results

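Hypomethylated regions (HMRs) of b cells were sorted by whether their DNA methylation was lower in the eYFP- subtype at both ages. HMRs from the 4 pools of the study, 2 subtypes at postnatal day 2 (P2) and at postnatal day 60 (P60), were merged where they overlapped, giving 84472 autosomal regions. Of these, 79828 had at least 100 reads in each pool, a read here being 1 read on 1 CpG. The level of a region is the percent of methylated reads among all its reads in a pool. A total of 1231 regions, 1.54% of the 79828, were at least 5 percentage points lower in eYFP- than in eYFP+ cells at P2 and again at P60, and these are the members described here. They were selected on the pooled eYFP- and eYFP+ levels at both ages, so those differences are given as a description and without a test.

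The 12 libraries came from mice of the genotype Myt1cCre; Ngn3nCre; Rosa26eYFP, InsApple, in which 2 Cre fragments are driven by Myt1 and by Ngn3. A complete Cre forms where both genes are active and permanently turns on eYFP, so eYFP+ cells descend from Myt1+Ngn3+ (M+N+) islet progenitors and eYFP- cells from M-N+ progenitors. The Apple protein under insulin control marks b cells for sorting. All groups carried all of these alleles and none was treated. There were 2 eYFP- and 2 eYFP+ libraries at P2 (1 labelled female and 1 male of each) and 4 and 4 at P60 (2 and 2 of each), and each library combined cells of several sorts and of several mice. In the labels the reporter is written eGFP and the cell type as all islet cells. Because the cells were pooled, a level cannot tell a larger share of unmethylated cells from lower methylation within each cell.

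DNA methylation at CpGs is low at active promoters and enhancers and high in most of the genome. An HMR is a run of CpGs with low methylation, and HMRs away from gene starts commonly mark enhancers used by a cell type or by its progenitors. In b cells, such regions gain and lose methylation during postnatal maturation. Among the factors that act at b-cell enhancers, PDX1 binds TAAT-containing sites, NEUROD1 binds CAGATG E-boxes, MAFA binds TGCTGAC elements, and FOXA factors open the chromatin of the pancreatic lineage.

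The pools held a mean of 25.2 (P2 eYFP-), 25.3 (P2 eYFP+), 45.7 (P60 eYFP-) and 45.4 (P60 eYFP+) reads per autosomal CpG, and 67.6% to 70.1% of their reads were methylated. Within 500 bp of their gene starts, the b-cell genes Iapp (0.323% to 4.85%), Mafa (0.569% to 1.29%) and Slc30a8 (11.6% to 14.7%) were low in all 4 pools, and Ins1 fell between 5.74% and 35.1%. Ins2 (69.0% to 78.6%) and G6pc2 (79.7% to 85.0%) were high. The starts of 12 genes of other islet, acinar, endothelial and immune cells lay between 39.2% (Cel) and 87.3% (Ppy). Of 254 X-chromosomal HMRs present in all P60 libraries labelled male and in none labelled female, the P2 eYFP- library labelled female held 92.5% and the one labelled male 13.4%, against 13.0% and 84.3% in the P2 eYFP+ libraries. The 2 P2 eYFP- libraries thus went against their sex labels, and no test below uses sex at P2.

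Sequences of the members with the largest difference at both ages are shown to make plain what kind of CpG run they are. The rule took members with at least 5 CpGs and 200 reads in each pool, ranked by the smaller of their 2 differences. From the 10 largest, the 6 whose window does not overlap an annotated exon were printed, each as 200 bp of mm39 (plus strand) around its largest summed difference, with each CpG in capitals.
region near Col27a1 (chr4:63139873-63140072): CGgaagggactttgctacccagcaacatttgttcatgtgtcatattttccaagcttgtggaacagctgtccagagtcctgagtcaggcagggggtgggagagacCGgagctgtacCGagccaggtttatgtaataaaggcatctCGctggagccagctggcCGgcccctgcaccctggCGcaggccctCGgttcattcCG
region near Pcdh9 (chr14:93040244-93040443): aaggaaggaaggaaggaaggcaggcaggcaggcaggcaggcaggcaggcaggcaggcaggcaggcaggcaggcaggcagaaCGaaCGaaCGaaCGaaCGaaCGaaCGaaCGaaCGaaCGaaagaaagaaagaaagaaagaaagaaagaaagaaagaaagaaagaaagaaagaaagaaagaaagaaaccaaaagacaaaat
region near Cntln (chr4:84905760-84905959): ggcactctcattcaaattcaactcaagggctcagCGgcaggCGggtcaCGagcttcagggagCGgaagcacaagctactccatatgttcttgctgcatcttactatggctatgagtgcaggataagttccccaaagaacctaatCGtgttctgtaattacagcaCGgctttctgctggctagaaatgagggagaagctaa
region near Map3k1 (chr13:112142200-112142399): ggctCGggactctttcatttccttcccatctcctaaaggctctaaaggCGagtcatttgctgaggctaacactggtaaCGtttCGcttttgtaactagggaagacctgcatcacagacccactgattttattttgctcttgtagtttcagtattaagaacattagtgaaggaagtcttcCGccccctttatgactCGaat
region near Tmem182 (chr1:40993877-40994076): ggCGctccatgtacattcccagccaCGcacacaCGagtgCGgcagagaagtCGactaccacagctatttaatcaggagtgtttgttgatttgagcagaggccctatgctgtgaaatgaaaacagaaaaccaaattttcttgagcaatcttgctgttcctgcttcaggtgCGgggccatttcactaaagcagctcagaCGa
region near Hs3st1 (chr5:39582977-39583176): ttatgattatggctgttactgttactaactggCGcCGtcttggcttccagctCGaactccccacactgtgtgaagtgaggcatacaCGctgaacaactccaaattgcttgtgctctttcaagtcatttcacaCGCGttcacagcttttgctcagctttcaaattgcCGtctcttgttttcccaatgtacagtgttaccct

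The windows held 6 to 10 CpGs each. The region near Pcdh9 was a tandem repeat in which each of 10 CpGs followed the same 2 bases, and the other windows held scattered CpGs without such an array. In the Col27a1 window, a collagen gene, all 8 CpGs were lower in eYFP- at both ages. In the Cntln window, a gene of a centrosomal protein, all 6 CpGs were too, with the CpG at base 42 at 13.6% against 29.2% at P2 and 30.8% against 63.3% at P60. The Map3k1 window was less even: the CpG at base 49 measured 10.8% in eYFP- and 53.6% in eYFP+ cells at P2, whereas the CpG at base 196 was 16.7% in eYFP- and 9.52% in eYFP+ cells at P60. All 7 CpGs of the Tmem182 window were lower in eYFP- at both ages. Single CpGs rested on 10 to 81 reads per pool, so their levels are coarse.

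Across all 79828 regions, 8990 (11.3%) were at least 5 points lower in eYFP- cells at P2 and 7331 (9.18%) at least 5 points lower in eYFP+ cells. At P60 the balance was the other way, with 4329 (5.42%) lower in eYFP- and 6133 (7.68%) lower in eYFP+. Beside the 1231 members, 1299 regions (1.63%) were lower in eYFP+ at both ages. The sign switched in 1281 regions, of which 739 (0.926%) were lower in eYFP- at P2 and in eYFP+ at P60, and 542 (0.679%) were lower in eYFP+ at P2 and in eYFP- at P60. Members and switching regions were therefore about equally many, 0.961 members for each switching region, while both same-sign groups together came to 1.98 regions for each switching region.

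**Figure D1:**
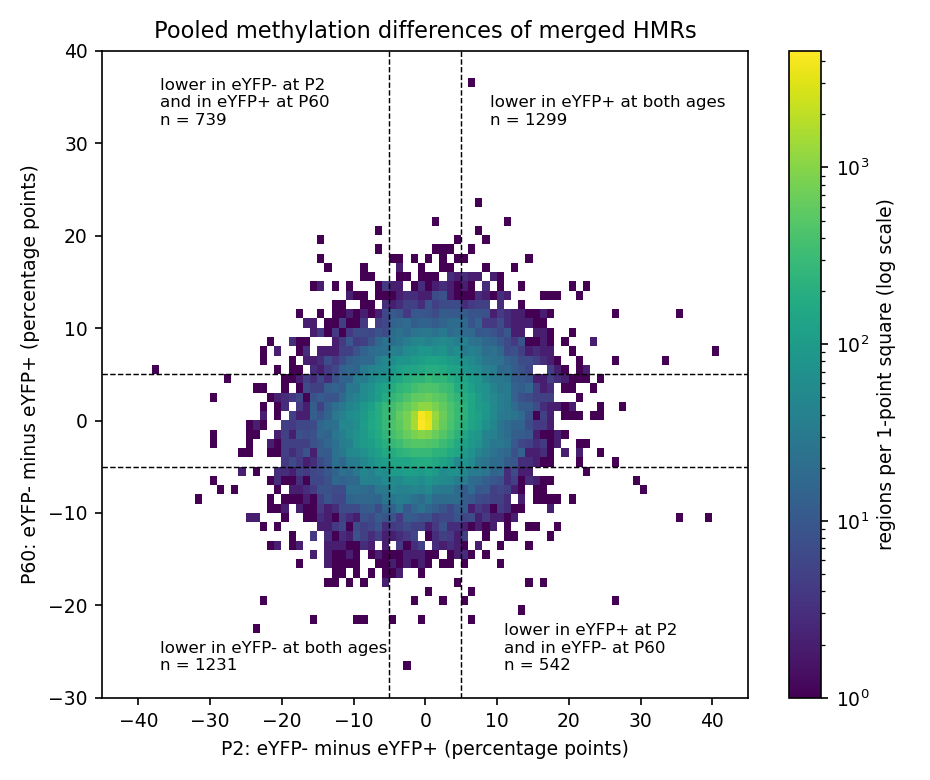
Difference in pooled methylation level, eYFP- minus eYFP+ in percentage points, at P2 (x axis) and at P60 (y axis) for 79828 merged HMRs, with the number of regions in each 1-point square as colour on a log scale and the 5-point limits as dashed lines. The 1231 members fill the lower left corner, the 1299 regions lower in eYFP+ at both ages the upper right, and the 2 switching corners hold 739 and 542 regions.

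Of the 8990 regions lower in eYFP- at P2, 13.7% were lower in eYFP- at P60 by the same limit and 8.22% lower in eYFP+. For regions within 5 points at P2 these shares were 4.02% and 6.45%, and for regions lower in eYFP+ at P2 they were 7.39% and 17.7%. Seen from P60, 28.4% of the 4329 regions lower in eYFP- had been lower in eYFP- at P2 and 12.5% lower in eYFP+. Most regions chosen at P2 were within 5 points at P60, and the median P60 difference of the 8990 was -0.53 points. Over all 79828 regions the 2 differences had a Pearson correlation of 0.149 and a Spearman correlation of 0.129, given as a description, since the regions of a pool share its libraries and depth.

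The median level of the members was 16.2% in eYFP- and 25.3% in eYFP+ cells at P2, and 19.8% and 28.3% at P60. All tested regions had medians of 11.1%, 11.7%, 15.1% and 15.1% in the same order, so in eYFP- cells the members were less deeply demethylated than HMRs at large, and in eYFP+ cells they stood higher still. The median difference of the members was -8.44 points at P2 and -6.96 points at P60. Their median 95% half-width from read counts alone was 8.08 points at P2 and 6.41 at P60. For 489 members (39.7%) the interval lay below 0 at both ages, against 912 of all tested regions (1.14%). These intervals use the reads that selected the members, so this share is no separate evidence for single regions. At least 10 points lower in eYFP- at both ages were 87 members.

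Members were small. They had a median length of 297 bp and 7 CpGs, against 540 bp and 10 CpGs for all tested regions, and 25.3% were under 200 bp against 8.74%. Their median depth was 181, 183, 320 and 318 reads in the 4 pools, against 264, 264, 501 and 494. Regions lower in eYFP+ at both ages were also short (359 bp, 7 CpGs), as were the switching groups (327 and 314.5 bp), so small size was common to the regions past the limit.

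At the limit itself, the member on chromosome 2 at chr2:34537515-34537621, 107696 bp from the start of Gapvd1, differed by 8.90 points at P2 and 5.00 at P60, and the one in an intron of Fras1 (chr5:96617813-96618696) by 5.00 and 5.75. Just outside, a region near Rufy2 (chr10:62829914-62830262) differed by 6.02 and 4.998 points and one near Fgf12 (chr16:28429760-28430360) by 6.52 and 4.997. Regions on both sides of the limit were alike in size of difference.

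Members lay away from promoters. Only 8 of 1231 (0.650%, 95% Wilson interval 0.330% to 1.28%) had their midpoint within 1 kb of the start of a protein-coding gene, against 14.1% of all tested regions, 1.92% of those lower in eYFP+ at both ages, and 2.03% and 2.21% of the switching groups. Introns held 591 members (48.0%, 45.2% to 50.8%), intergenic DNA 550 (44.7%) and exons 82 (6.66%), against 39.2%, 40.04% and 6.62% of all tested regions. The median distance to the nearest gene start was 67795 bp for members and 29509 bp for all. Intergenic and intronic members had much the same medians, 16.5% and 15.9% in P2 eYFP- cells and 25.7% and 24.6% in P2 eYFP+ cells. These intervals treat regions as independent, and the differences between groups of regions were not tested.

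The 1231 members were spread over 1102 nearest genes and every autosome, from 1.03% of tested regions on chromosome 11 to 1.99% on chromosome 2. Only 30 lay within 10 kb of another member. Galnt17, a glycosyltransferase gene, was the nearest gene of 6 members, and the axon guidance receptor gene Robo1 and the deubiquitinase gene Usp25 of 4 each. These 3 genes were picked out after the counts were seen.

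An HMR was called in the pool for 963 members (78.2%) in P2 eYFP-, 462 (37.5%) in P2 eYFP+, 786 (63.9%) in P60 eYFP- and 368 (29.9%) in P60 eYFP+ cells. All tested regions gave 86.1%, 87.2%, 71.9% and 71.4%. For 505 members (41.02%) only 1 pool had the HMR, which was P2 eYFP- for 303, P60 eYFP- for 201 and P2 eYFP+ for 1, so 1 pool set their borders. A further 120 members had an HMR in both eYFP- pools and in neither eYFP+ pool (9.75%, against 0.514% of all tested regions). In 219 members (17.8%) all 4 pools had an HMR, and the subtypes differed in level within it. The HMR calls of the pools come from the reads that selected the members, so these shares are a description.

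Single CpGs followed the regions. Of 9348 member CpGs with at least 10 reads in each pool, 78.5% were lower in eYFP- at P2, 79.9% at P60 and 63.7% at both ages, against 28.5%, 33.9% and 11.7% of the CpGs of all tested regions, where many CpGs were at equal levels. Of 1227 members with at least 3 such CpGs, every CpG was lower in eYFP- in 253 at P2, in 281 at P60 and in 84 at both ages. These are the reads that selected the members, so the shares show how the difference was spread and are no separate evidence for it.

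CpGs beside the members, outside any merged HMR, were not used in the choice. In the 200 bp on the left and right of a member, pooled over members, the level differed by -2.85 and -2.26 points (eYFP- minus eYFP+) at P2 and by -1.59 and -1.49 points at P60. Beside all tested regions the same flanks differed by -0.50 and -0.43 points at P2 and by 0.52 and 0.49 points at P60. At 200 to 500 bp the members were at -1.25 points (right) and -0.49 points (left) at P2, against -0.31 on either side of all regions. At P60 the same bins were at 0.06 and 0.40 points, against 0.56 and 0.61 beside all regions. Members were thus lower than all regions in both bins at both ages, and the distance was largest in the right flank at P2. At 500 to 1000 bp the members had -0.54 and -0.18 points at P2, against -0.34 and -0.33 beside all regions. Of 472 members with 50 or more flank reads per pool in the left 200 bp, 37.3% were lower in eYFP- at both ages, against 24.02% of all tested regions. The flank differences were not tested, and the reads of a flank partly come from molecules that also cover the member.

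**Figure D2:**
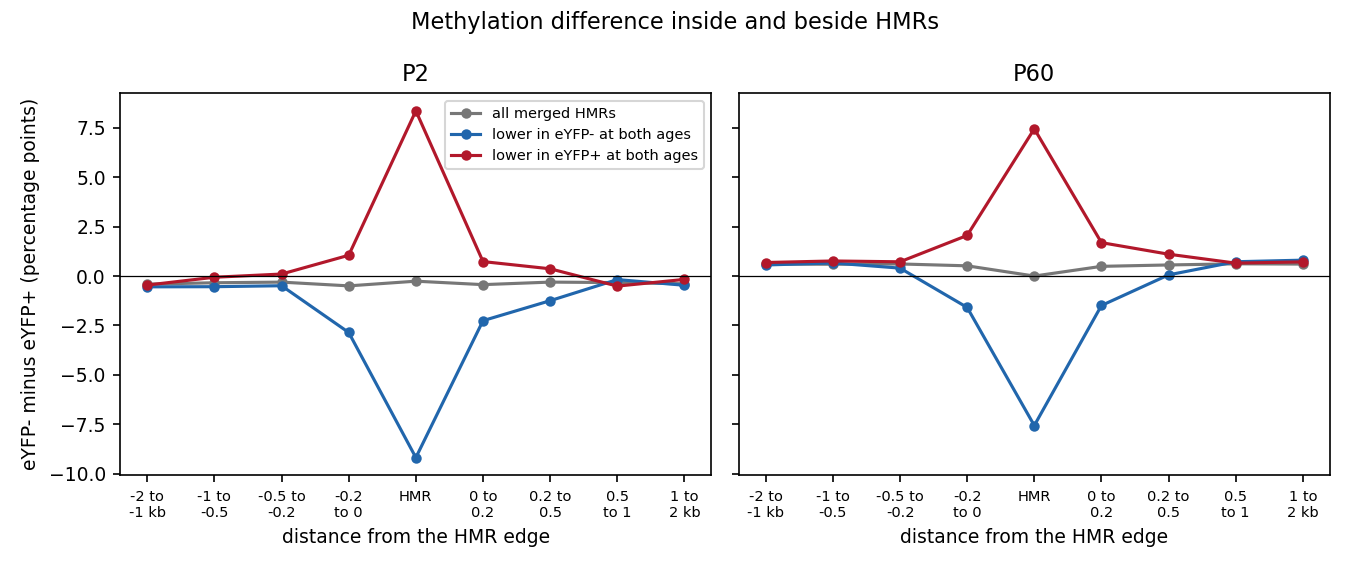
Difference in pooled methylation, eYFP- minus eYFP+ in percentage points, inside the HMR and in flanking bins that leave out all merged HMRs, at P2 (left) and P60 (right). Bins run from 2 kb on one side to 2 kb on the other; members (blue) stood at -2.85 points in the left 200 bp at P2 and at -0.54 and -0.18 points at 500 to 1000 bp, near all tested regions (grey); red marks the 1299 regions lower in eYFP+ at both ages.

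Levels of the members also differed between ages. From P2 to P60, 499 members (40.5%) gained more than 5 points in both subtypes and 236 (19.2%) lost more than 5 points in both. Of all tested regions, 36.0% gained and 4.68% lost by this measure, and of the regions lower in eYFP+ at both ages 75.5% gained and 5.70% lost. In the switching groups 42.2% and 43.2% gained and 2.84% and 3.69% lost. These shares are a description, because a region was included only where some pool had an HMR, and that depends on its level at each age. The HMR was called in the P60 eYFP- pool alone for 201 members (16.3%, against 1.58% of all tested regions) and in both P60 pools alone for 61 (4.96%, against 3.6%), and such regions tend to be lower at P60. Each pool is 1 value per age, so these shares have no replicate error, and age and sequencing submission cannot be told apart.

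Members that gained had medians of 14.6% (eYFP-) and 23.0% (eYFP+) at P2 and of 29.8% and 38.4% at P60. Those that lost went from 25.6% and 34.4% to 12.3% and 20.1%. The rule set every member at least 5 points lower in eYFP- at both ages, so the order of the subtypes in both classes was fixed by the choice. The median difference was -7.85 (P2) and -6.81 points (P60) in gaining members and -8.62 and -7.09 in losing ones. Intergenic DNA held 38.9% of the gaining and 49.6% of the losing members.

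**Figure D3:**
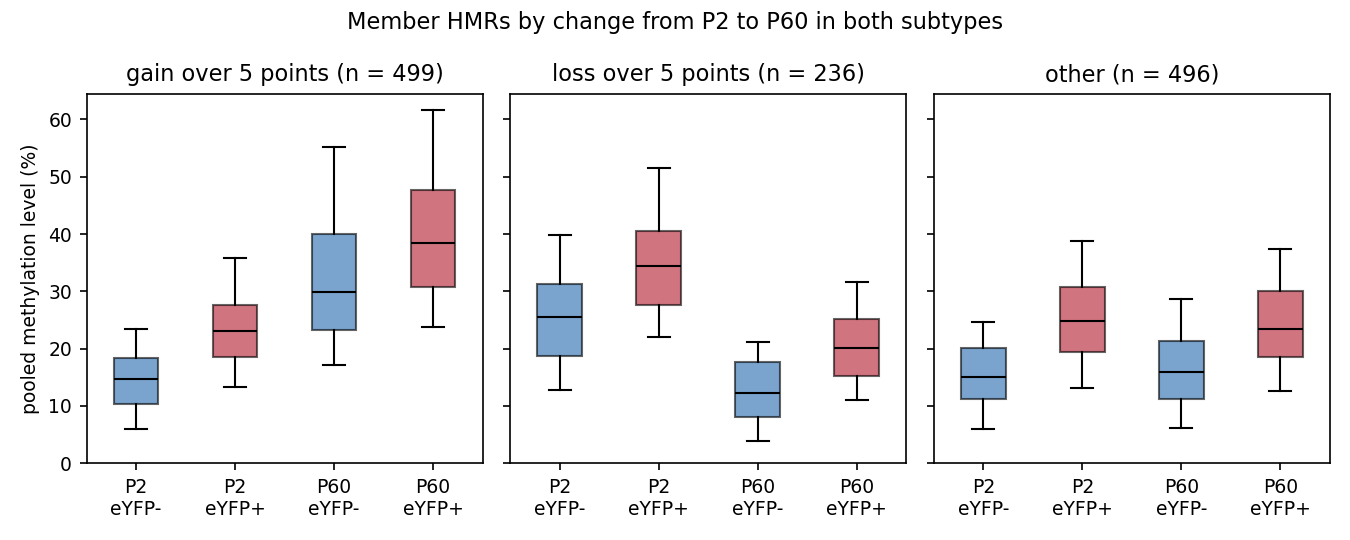
Pooled methylation levels (percent) of the 1231 members in the 4 pools, for the 499 that gained and the 236 that lost more than 5 points from P2 to P60 in both subtypes and for the other 496. Boxes give quartiles and median and whiskers the 5th and 95th percentiles over regions; gaining members had medians of 14.6% and 23.0% at P2 and losing members of 12.3% and 20.1% at P60.

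Of the 10 members with the largest difference at both ages, 9 had an HMR in both P2 eYFP- libraries, and 6 of these 9 had none in either P2 eYFP+ library. The Col27a1 intron (chr4:63139873-63140071, 8 CpGs) measured 17.9% (95% Wilson interval 13.2% to 23.8%) and 31.8% (26.1% to 38.0%) in eYFP- and eYFP+ cells at P2, and 22.9% and 40.7% at P60. The exonic region of E2f7 (chr10:110620818-110621012), a repressor of cell cycle genes, measured 20.3% (15.7% to 25.9%) and 38.9% (32.5% to 45.6%) at P2, and 16.5% and 29.5% at P60. In single libraries the E2f7 region carried an HMR in 2 of 2 eYFP- and 0 of 2 eYFP+ libraries at P2, and in 2 of 4 and 0 of 4 at P60. The library HMRs come from the reads of the pools and are not independent of them.

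The intergenic region on chromosome 13 nearest to the kinase gene Map3k1 (chr13:112142070-112142645) measured 20.4% and 35.5% at P2, and 17.7% and 30.3% at P60. Like the E2f7 region it was lower at P60 than at P2 in both subtypes. An intergenic region on chromosome 1 (chr1:40993703-40994224), nearest to Tmem182, measured 15.6% and 29.4%, then 18.8% and 30.7%. It had an HMR in 4 of 4 P60 eYFP- libraries and in 0 of 4 P60 eYFP+ libraries, but in 1 of 2 P2 eYFP+ libraries. Near Hs3st1, a heparan sulfate sulfotransferase gene, the region chr5:39583009-39583143 measured 31.1% and 42.6% at P2 and 17.98% and 31.9% at P60, and it had no HMR in any P2 library.

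The other members of this set had higher levels at P60 than at P2 in eYFP- cells. In the Cntln intron (chr4:84905611-84905924) they went from 18.8% and 31.8% to 38.5% and 54.5%. The region inside Ccdc62 near Hip1r, a gene of clathrin-coated vesicles (chr5:124099209-124099449), went from 12.6% and 28.1% to 39.1% and 51.2%. Neither had an HMR in any P60 library. An exonic region of the tyrosine kinase gene Fer (chr17:64447354-64447726) measured 16.1% and 29.4%, then 25.1% and 38.3%. The repeat nearest to Pcdh9, at more than 1 Mb (chr14:93040325-93040361), measured 20.4% and 38.0%, then 21.8% and 35.4%. How reads were placed over this repeat was not tested.

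Only 3 members within 1 kb of a gene start passed the minimum of 5 CpGs and 200 reads. The region at S100z, a gene of the S100 family of calcium-binding proteins (chr13:95615169-95615706, 22 CpGs), measured 19.3% (16.3% to 22.8%) and 31.6% (27.9% to 35.5%) at P2, and 35.3% (32.5% to 38.2%) and 52.2% (49.0% to 55.4%) at P60. It had an HMR in 2 of 2 eYFP- and 1 of 2 eYFP+ libraries at P2, and in 2 of 4 and 0 of 4 at P60. The other two lay at Mcmdc2 (20.9% and 33.3%, then 25.8% and 31.2%) and at the serine protease gene Tmprss9 (13.0% and 19.4%, then 15.9% and 21.3%).

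The deposited lists of gated differentially methylated regions (DMRs; at least 50 bp and 2 differing CpGs) came from the same pools. A DMR lower in eYFP- overlapped 210 of the 1231 members at P2 and 202 at P60, against 1688 and 975 of the 79828 tested regions. At both ages it did so for 25 members (2.03%, against 0.0664% of all tested regions). In all, 387 members overlapped such a DMR at 1 age or both, against 2610 of all tested regions. The other members passed the 5-point limit without a gated DMR at either age. Beside the E2f7, Map3k1 and S100z regions, the members with a DMR at both ages included an intron of Slco5a1, an organic anion transporter gene (chr1:12982935-12983127), with 21.3% and 42.0% at P2 and 22.4% and 36.1% at P60. An Aff3 intron (chr1:38278255-38278716) measured 18.1% and 33.6%, then 21.1% and 31.5%, and had an HMR in 2 of 2 and 2 of 4 eYFP- libraries and in no eYFP+ library. A region 97664 bp from the histamine receptor gene Hrh1 (chr6:114471986-114472297) measured 20% and 41.7%, then 13.8% and 22.9%. The remaining 4 of the 10 largest lay in an intron of Lmo7 and in intergenic DNA whose nearest genes were Tmem182 (chr1:41691208-41691376, 846795 bp away), Galc (860242 bp) and Mkln1 (113416 bp), with differences of 8.34 to 13.9 points at P2 and of 9.62 to 15.9 at P60.

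b-cell identity genes were among the nearest genes. Of 33 genes of b-cell identity (transcription factors, hormones, glucose sensing and granule proteins), 6 (18.2%) were the nearest protein-coding gene, within 100 kb, of a member, among them Foxa1, Foxa2, Mafa, Pdx1 and Slc30a8. By the same count 731 of 16313 protein-coding genes with a tested region (4.48%) had a member. These 33 genes have many HMRs, and of their 267 tested regions 6 were members (2.25%), against 1.26% of the regions within 100 kb of any gene start. Regions lower in eYFP+ at both ages were nearest to 4 of the 33 genes and switching regions to 2. The list was not tested for enrichment.

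FOXA2 is a pioneer factor of the pancreatic lineage. The member nearest to Foxa2 (chr2:147816535-147817527, 71974 bp from the start, 19 CpGs) measured 14.9% (12.1% to 18.1%) and 23.7% (19.7% to 28.2%) at P2, and 10.4% (8.85% to 12.3%) and 18.01% (15.5% to 20.8%) at P60, and all 12 libraries had an HMR over it. This region lies outside protein-coding genes and overlaps exons of another annotated gene along its whole length. Near Mafa, which activates insulin transcription, a region 5299 bp from the start (chr15:75614609-75614947) measured 20.9% and 32.8%, then 16.0% and 22.6%. Both of these members were lower at P60 than at P2 in both subtypes. The member nearest to Foxa1 (chr12:57520303-57520479), in an intron of Mipol1, measured 20.4% and 26.5% at P2 and 26.8% and 38.4% at P60, and those near Pdx1 and Slc30a8 were also higher at P60.

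The other lists had few or no members. Of 47 genes of Wnt signalling and planar polarity, 4 (8.51%) had one: Ctnnb1, Wnt16, Wnt2 and Wnt2b, encoding b-catenin and 3 Wnt ligands. Counted by region, 4 of their 331 tested regions were members (1.21%), close to the 1.26% over all genes. The region nearest to Wnt16 (chr6:22312767-22312917) measured 9.20% and 15.9% at P2 and 24.8% and 37.5% at P60. Near Wnt2b it was 7.63% and 12.8%, then 16.4% and 22.0%, near Ctnnb1 17.1% and 22.4%, then 32.1% and 37.1%, and near Wnt2 19.8% and 24.8%, then 13.4% and 20.4%. No member was nearest to a gene of the short lists of 33 exocytosis genes, 31 calcium and potassium channel genes, 24 receptor genes and 13 genes of DNA methylation, which had 188, 176, 144 and 76 tested regions. Genes of the same kinds outside these lists did have members. For example, and named after the values were seen, members were nearest to the channel genes Kcnf1, Kcna7 and Cacna1s and to the DNA methyltransferase gene Dnmt3c. Regions lower in eYFP+ at both ages were nearest to 1, 4, 3 and 2 genes of these lists.

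Among lists of other cells, members were nearest to 1 of 14 genes of other islet cells (7.14%, Irx2), 3 of 18 acinar and duct genes (16.7%, among them Bhlha15 and Gata4), 1 of 7 immune genes (14.3%, Cx3cr1), and none of 11 endothelial and 12 mesenchymal and Schwann cell genes. Counted by region the shares were 1.37%, 2.75% and 5.56%, the last being 1 of 18 regions. The acinar and duct list thus had shares of genes and of regions like those of the b-cell identity list (18.2% and 2.25%). Gata4 is also active in pancreatic progenitors. At the Bhlha15 member the levels were 36.5% and 46.2% at P2 and 22.1% and 30.8% at P60. At the Cx3cr1 member they were 14.4% and 22.8%, then 6.09% and 12.8%. The part of other cell types in the members was not tested.

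Short motifs were counted in the central 200 bp of each region, on both strands. CAGATGG (NEUROD) was found in 144 members (11.7%, 95% Wilson interval 10.02% to 13.6%), TAATTA (PDX1 and other homeodomain factors) in 153 (12.4%, 10.7% to 14.4%) and TGCTGAC (MAFA) in 97 (7.88%, 6.50% to 9.52%). Among the tested regions over 1 kb from a gene start the shares were 7.57%, 8.65% and 5.19%, and among all tested regions 6.86%, 7.62% and 4.87%. Regions lower in eYFP+ at both ages had 5.85%, 8.39% and 3.93%. All 3 motifs were thus found in more of the members than of the opposite group, and 28.4% of members held at least 1 of them against 17.3% of that group.

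The switching regions lower in eYFP- at P2 stood between, with 8.25%, 10.6% and 6.63%, and those lower in eYFP+ at P2 had 6.64%, 8.12% and 4.06%. Regions lower in eYFP- at P2 whatever happened later had 9.94%, 10.4% and 6.75%, and at P60 10.4%, 11.6% and 6.61%, in both cases below the members. Other motifs did not follow this order. TGTTTAC (FOXA) was found in 5.77% of members and in 5.62% of the regions lower in eYFP+ at both ages, TGANTCA (AP-1) in 7.88% and 8.01%, CACGTG (E-box) in 4.31% and 5.62%, AGATAAG (the GATA motif) in 2.76% and 4.77%, GTTGCCA (RFX) in 2.60% and 4.00%, and TGACGTCA (the CRE motif) in 0.0812% and 0.385%. The motifs do not contain one another. The median GC content of these 200 bp was 46.5% in members and 48.5% in regions lower in eYFP+ at both ages, and its part in the shares of AT-rich motifs was not tested. A match of letters is not a binding site, and the shares were not tested.

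**Figure D4:**
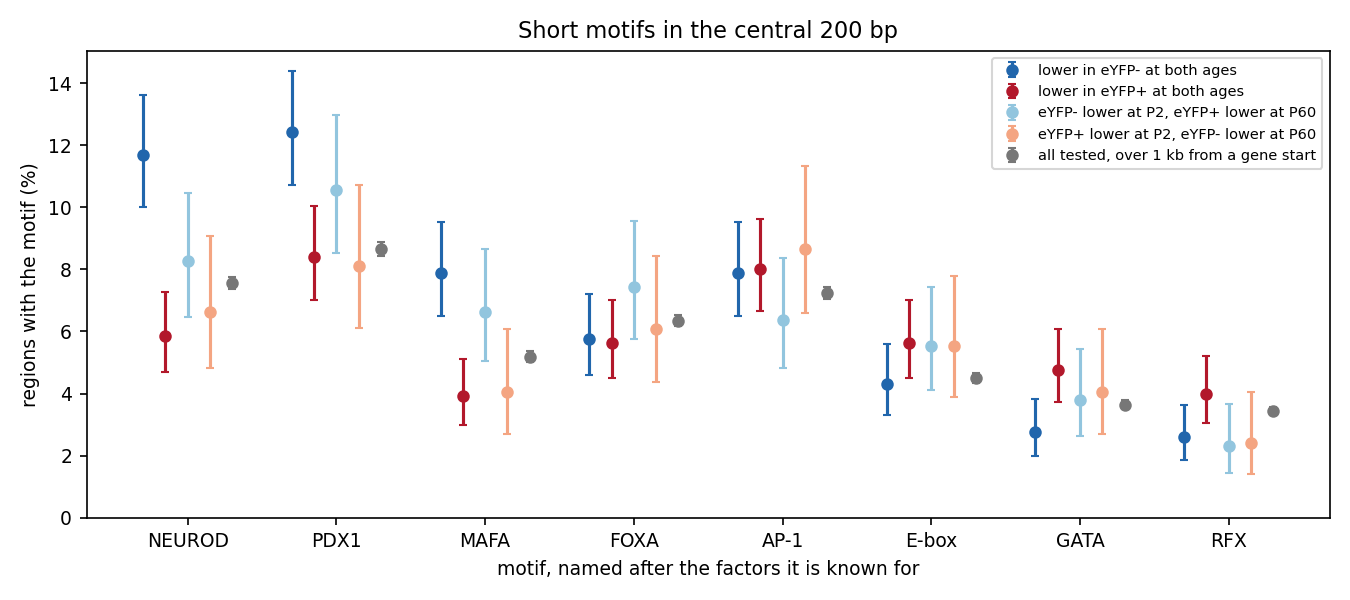
Percent of regions with a short motif in the central 200 bp (y axis) for 8 motifs (x axis) in members (dark blue), regions lower in eYFP+ at both ages (dark red), both switching groups (pale) and all tested regions over 1 kb from a gene start (grey). Bars are 95% Wilson intervals over regions; NEUROD, PDX1 and MAFA motifs were in 11.7%, 12.4% and 7.88% of members, above the 5.85%, 8.39% and 3.93% of the dark red group.

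Single libraries were deposited as HMR positions without read counts. The share of members overlapped by a library's HMRs was 47.8% and 44.4% in the P2 eYFP- libraries (replicates 1 and 2) and 25.3% and 20.7% in the P2 eYFP+ libraries. At P60 it was 28.0%, 36.7%, 18.4% and 29.3% in eYFP- (replicates 1 to 4) and 10.4%, 15.8%, 11.05% and 16.0% in eYFP+ libraries. The subtypes did not overlap at either age, but replicate 3 of eYFP- at P60 (18.4%) came close to replicates 2 and 4 of eYFP+. The HMRs of a library come from reads that selected the members. This order and the counts below are therefore a description and no separate evidence. Over all tested regions the subtypes were alike, with means of 70.2% and 70.7% at P2 and 52.3% and 51.6% at P60. In 108 members both P2 eYFP- libraries and no P2 eYFP+ library had an HMR (8.77%, against 1.16% of all tested regions), in 36 at least 3 of the P60 eYFP- and no P60 eYFP+ library did (2.92% against 0.223%), and in 3 both held. No member had an HMR in every eYFP- and in no eYFP+ library, and 337 members (27.4%) had no HMR in any single library.

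Regions chosen at 1 age and read in libraries of the other age gave a comparison of subtypes with replicates in which the levels of the age that was read did not choose the direction. The pools of both ages still set which regions exist and where they end, since HMRs were merged over all 4 pools. For each P60 library, an index was taken as the percent of the 8990 regions lower in P2 eYFP- cells that its HMRs overlapped minus the percent of the 7331 regions lower in P2 eYFP+ cells. It was 13.0, 17.4, 9.06 and 13.7 points in the eYFP- libraries and 9.07, 12.6, 8.10 and 11.6 points in the eYFP+ libraries. The means were 13.3 ± 3.43 (SD, n = 4) and 10.3 ± 2.10 (SD, n = 4), and the groups overlapped. The difference of 2.97 points did not pass a two-sided exact permutation test over libraries (p = 0.171, adjusted for 4 tests by Benjamini-Hochberg 0.333, smallest possible p 0.0286). The eYFP- library was the higher one in 4 of 4 pairs with the same replicate number. Within replicates 1 and 2, which were 1 sequencing submission, the difference was 4.37 points, and within replicates 3 and 4 it was 1.56. Without P60 eYFP- replicate 2 it was 1.59 over all libraries.

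In the other direction, the regions lower at P60 were read in P2 libraries. The index was -4.65 and -5.74 points in the eYFP- and -15.3 and -13.7 points in the eYFP+ libraries, without overlap between the subtypes. The difference of 9.33 points gave p = 0.333 in a two-sided exact permutation test (adjusted 0.333), and a design of 2 against 2 cannot go lower. It was 6.13 points with regions merged from the P60 pools alone, 14.6 at a limit of 10 points, and 4.47 when the regions lower in eYFP- were set against all regions. On the regions lower in P60 eYFP- cells alone, the P2 libraries overlapped 45.2% and 42.1% (eYFP-) and 43.5% and 36.0% (eYFP+), and the subtypes overlapped. On the regions lower in P2 eYFP- cells alone the P60 libraries overlapped too, with replicate 4 at 31.8% in eYFP- and 33.2% in eYFP+. The mean index was higher in eYFP- in both directions, and neither difference passed its test.

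**Figure D5:**
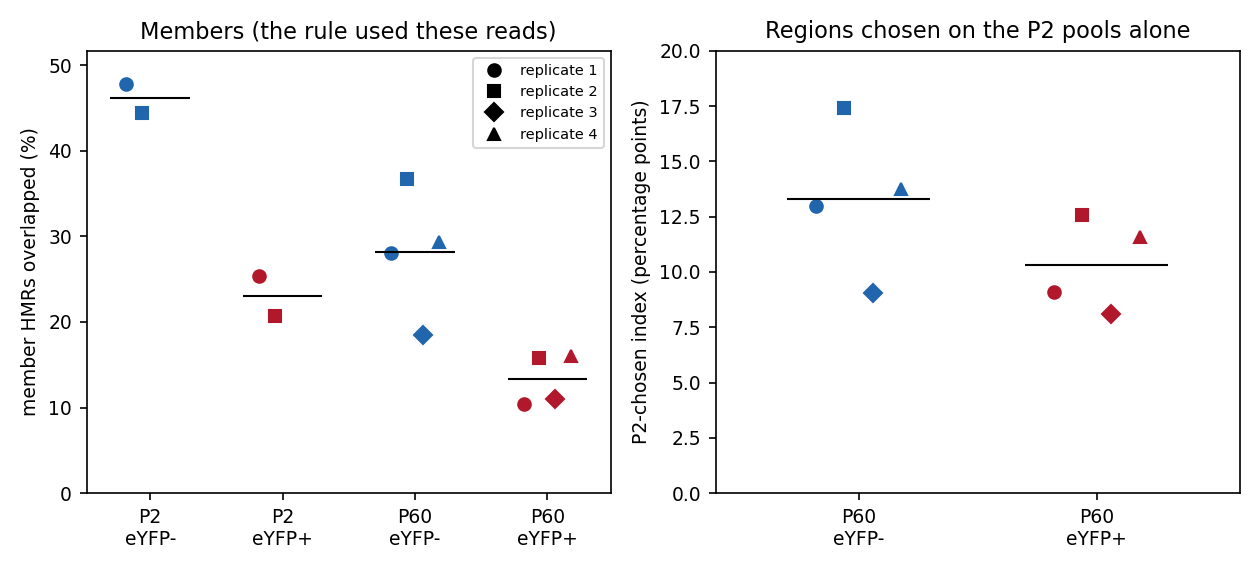
Left, percent of the 1231 members overlapped by the HMRs of each library, in which eYFP- libraries (blue) lie above eYFP+ libraries (red) at each age, by the reads that selected the members. Right, the index of regions chosen on the P2 pools alone in P60 libraries (percentage points), with means of 13.3 in eYFP- and 10.3 in eYFP+; symbols are replicates and lines are means.

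Between ages, libraries overlapped 34.6% ± 13.5 (SD, n = 4) of the members at P2 and 20.7% ± 9.53 (SD, n = 8) at P60. The difference of -13.9 points did not pass the two-sided exact permutation test (p = 0.0646, adjusted 0.259). That test mixed the subtypes, which the rule had set apart on these regions, so their gap was part of its spread. Within subtypes the difference was -17.97 points in eYFP- and -9.73 points in eYFP+ libraries. Every P2 library lay above every P60 library there, with at least 44.4% against at most 36.7% in eYFP- and 20.7% against 16.0% in eYFP+. An unadjusted exact permutation test within either subtype gave p = 0.0667, the smallest that 15 regroupings allow. Over all tested regions the share was also lower at P60, with 70.5% ± 2.30 (SD, n = 4) at P2 and 51.9% ± 5.09 (SD, n = 8) at P60, so relative to all regions the members were 4.66 points higher at P60. Leaving out 1 library at a time, the unadjusted exact permutation p between ages ran from 0.0242 to 0.206 over 12 runs. It was below 0.05 only without P2 eYFP+ replicate 1 (0.0424), P2 eYFP+ replicate 2 (0.0242) or P60 eYFP- replicate 2 (0.0333).

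Between sexes at P60, libraries labelled female overlapped 17.0% ± 8.22 (SD, n = 4) of the members and those labelled male 24.5% ± 10.3 (SD, n = 4). The difference of -7.47 points did not pass the exact permutation test (p = 0.286, adjusted 0.333). That test also mixed the subtypes, so the gap between them was part of its spread. Within each subtype both libraries labelled male lay above both labelled female. The shares were 29.3% and 36.7% against 18.4% and 28.0% in eYFP-, and 15.8% and 16.0% against 10.4% and 11.05% in eYFP+. The sexes were not tested within subtypes. Female libraries also overlapped fewer of all tested regions, 47.6% against 56.3%, and had 39380 HMRs on average against 46816. Relative to all regions the difference was 1.18 points in the other direction, and without P60 eYFP- replicate 2 it was -3.38 points.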

How the data were processed

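DNA methylation was measured by tagmentation-based WGBS in 12 libraries of sorted b cells. Per the methods, the authors trimmed reads (Trim Galore 0.6.6 with cutadapt 1.16, SAMtools 1.5 per the labels' processing notes), aligned them with abismal (build mm39) and called HMRs and DMRs with MethPipe. The versions of abismal and MethPipe are not given in the sources used here. The deposited tables hold, per CpG and pool, counts of methylated and unmethylated reads; column pairs B1 and B2 were taken as eYFP- and eYFP+. On regions chosen by these columns at P2 the percent overlapped where B1 was lower minus that where B2 was lower was 25.8 and 21.3 in the libraries labelled eYFP- and -27.0 and -22.9 in those labelled eYFP+. Deposited score columns, probabilities of a difference, and the candidate DMR lists were not used.

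Pooled HMRs were merged where they touched or overlapped, and levels were computed with Python 3.11.15, numpy 2.4.6, pandas 2.3.3 and scipy 1.17.1. All 20237978 autosomal CpG positions were CG in the GRCm39 reference, and genes came from GENCODE vM39. A library HMR counted with any overlap. Intervals are 95% Wilson intervals and cover counting error only. Libraries were compared by 4 exact permutation tests, adjusted together. Each library combined sorts of several mice, and separate libraries of a group are taken as replicates, whose spread may be partly technical. At P60 libraries with the same replicate number deviated together (correlations of 0.139, 0.208, 0.314 and 0.141 over regions), so the numbers were taken to pair the subtypes there. The highest correlation with another number was 0.0162, 0.242, 0.211 and 0.106, so replicate 2 correlated more with another number than with its own, and same-numbered libraries also share their labelled sex. At P2 the correlation was 0.0155.

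Named regions were the 10 largest by the smaller difference (5 CpGs and 200 reads), up to 5 near gene starts, the 10 largest with gated DMRs at both ages, 2 regions on each side of the limit and up to 4 members per gene list; those named by their count of members were chosen after seeing it. Members, lists and tests were chosen with earlier results of these data known, and the motifs were picked during the analysis. A few genes of the lists are not reported here by name. Computations were tested on simulated data.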

Additional observations from a re-analysis of the deposited data

How the results depend on the processing

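The count of regions lower in eYFP- at both ages was 87 at a limit of 10 points, 3608 at 3 points and 380 with at least 200 reads, against 51, 4850 and 359 switching regions. Members thus outnumbered switching regions at 10 points and at 200 reads and not at 3 points, and the cause was not tested. Members are 1 same-sign group, while the switching regions are 2 groups counted together. Both same-sign groups together came to 2.82 (10 points), 2.45 (200 reads) and 1.57 (3 points) regions for each switching region. The other 5 settings kept both counts within 1.5 times. Relative to all tested regions, the difference between ages turned to 4.66 points (p = 0.455, exact permutation test) and that between sexes to 1.18 points (p = 0.771, exact permutation test), because the share of all regions overlapped also differed. The P60-chosen index difference of 9.33 points was 6.13 with regions merged from the P60 pools alone, 4.47 for regions lower in eYFP- minus all regions and 14.6 at a limit of 10 points. Leaving out 1 library at a time gave 1.59 to 4.38 points for the P2-chosen index, 8.53 to 10.1 for the P60-chosen index, where 1 library is left alone in its group and no test was run, -18.5 to -9.42 between ages and -11.2 to -3.38 between sexes. The smallest differences in the P2-chosen index and between sexes were those without P60 eYFP- replicate 2, and the smallest between ages was that without P2 eYFP- replicate 1. With the replicate number as a block, the P2-chosen index kept its difference of 2.97 with an exact permutation p of 0.125, the smallest that 4 pairs allow. By the same test the P60-chosen index had 0.5, the age difference 0.0667 and the sex difference 0.333. These are the smallest p that their 4, 15 and 6 regroupings allow. No blocked test could therefore fall below 0.05, and they cannot show whether pairing changes a call. The values within submissions and within subtypes were added after seeing the data. Depth limits single regions: the median 95% half-width of a member's difference, 8.08 points at P2, was close in size to the median difference of -8.44 points.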
